A study of Homo sapiens with 2 samples.

Results

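The immunoglobulin light chain genes of GM12878, a human B cell line immortalised by Epstein-Barr virus, were examined in 2 libraries of Oxford Nanopore direct RNA sequencing. The set comprised 8 genes chosen by symbol: the variable genes IGLV2-14 and IGLV2-23, the lambda constant genes IGLC1, IGLC2, IGLC3 and IGLC7, the lambda-like gene IGLL5 and the kappa constant gene IGKC. Of these 8, 6 had read counts, spread over 899 of the 237608 transcript models. The other two, IGLC1 and IGLC7, were not analysed here, as no value was at hand for them. Annotated genes with a read numbered 16645 in all. Both libraries are of the same line and are replicates 1 and 2 of a single group, with no treatment or genetic change named in the labels. The labels name no separate cultures, so the spread between the libraries may be technical. Replicate 1 held 1360368 reads and replicate 2 held 1510998. Levels and differences of the 8 genes were known when the set was drawn up, so all values are given as a description, with intervals and without p-values.

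Each antibody carries a pair of identical light chains, which are made from either the lambda or the kappa locus. A light chain gene is assembled in the B cell by joining a variable (V) to a joining (J) segment, cut at recombination signal sequences that begin with a conserved heptamer. The mRNA then splices a leader exon to the joined V-J exon and that exon to a constant (C) exon. Against a reference genome in which V and J are not joined, such an mRNA is expected to align as leader, V, J and C blocks. A mature B cell clone usually uses a single productive light chain.

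The segment ends are shown first because the V-J join lies there. All lambda segments are on the plus strand of chromosome 22 (GRCh38, sequences and exons from GENCODE release 29). IGLV2-14 (ENSG00000211666.2, 22758700 to 22759218) has a leader exon of 87 bases and a V exon of 315 bases. Capitals mark CACAGTG or its reverse complement CACTGTG, the letters of the recombination heptamer, in the last 60 bases of the V exon and the last 46 bases of 4 annotated J segments.
IGLV2-14, chr22:22759159-22759218: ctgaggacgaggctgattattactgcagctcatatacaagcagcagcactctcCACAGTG
IGLJ1, chr22:22893773-22893818: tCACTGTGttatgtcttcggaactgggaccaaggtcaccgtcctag
IGLJ2, chr22:22899610-22899655: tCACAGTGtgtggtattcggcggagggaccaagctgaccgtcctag
IGLJ3, chr22:22904980-22905025: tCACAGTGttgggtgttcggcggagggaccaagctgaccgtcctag
IGLJ7, chr22:22921390-22921435: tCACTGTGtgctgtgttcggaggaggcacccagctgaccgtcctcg
In each of these J segments 38 bases follow the heptamer. Among all annotated transcripts, 1.35% held either form of the heptamer in their last 60 bases and 0.965% in their last 46. A letter match describes the reference sequence and does not show which J segment the reads carried.

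The constant genes are shown next because their close likeness limits how reads can be assigned. IGLC2 (ENSG00000211677.2, 22900976 to 22901437) and IGLC3 (ENSG00000211679.2, 22906342 to 22906803) are each a single exon of 462 bases that holds 317 coding bases and the 3′ untranslated region. Their coding parts differ at 3 of 317 bases and their remaining 145 bases at 1. IGLC1 differs from IGLC2 at 15 coding bases and IGLC7 differs from it at 13. Coding positions 21 to 60 and 201 to 260, counted from the first coding base of the exon, hold the 3 differences between IGLC2 and IGLC3, which are in capitals.
IGLC2, chr22:22900996-22901035: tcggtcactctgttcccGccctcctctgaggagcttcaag
IGLC3, chr22:22906362-22906401: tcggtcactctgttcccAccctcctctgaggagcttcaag
IGLC2, chr22:22901176-22901235: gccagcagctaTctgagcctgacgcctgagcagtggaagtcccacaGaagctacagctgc
IGLC3, chr22:22906542-22906601: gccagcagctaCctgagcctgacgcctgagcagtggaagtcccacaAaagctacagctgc
The V genes are also alike, though less close than IGLC2 and IGLC3, whose coding parts have an identity of 99.05%. Over 340 coding bases from the start codon, IGLV2-23 (ENSG00000211660.3, 22697789 to 22698407) differs from IGLV2-14 at 13, or an identity of 96.2%. Coding positions 121 to 160, a stretch where the differences are densest, hold 5 of them, in capitals.
IGLV2-14, chr22:22758978-22759017: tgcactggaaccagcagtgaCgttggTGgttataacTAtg
IGLV2-23, chr22:22698188-22698227: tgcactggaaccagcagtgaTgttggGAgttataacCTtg
Because of this likeness, the split of reads between IGLC2 and IGLC3 and between IGLV2-14 and IGLV2-23 is uncertain.

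Almost all light chain reads lay in the lambda locus, and most of those were assigned to IGLV2-14. In replicate 1 the members with reads took 0.806% of the library (0.791 to 0.821%, Wilson interval at 95% confidence). Replicate 2 had 0.924% (0.909 to 0.939%), and the mean was 0.865% ± 0.0836 (SD, n = 2). Levels (CPM) are reads per 1000000 reads of the library. A read stands for an RNA strand whatever its length, so CPM were not divided by length. In a bulk sample, fewer cells that make an RNA cannot be told apart from less of it per cell.

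Reads listed under IGLV2-14, the V gene, numbered 10119 in replicate 1 and 11343 in replicate 2. These were 7438 CPM (exact Poisson 95% interval 7294 to 7585) and 7507 CPM (7369 to 7646), a mean of 7473 CPM ± 48.5 (SD, n = 2). The intervals overlapped, and the log2 ratio of replicate 2 to replicate 1 was 0.01 (95% interval -0.03 to 0.05) with library totals and -0.01 with TMM scaling, so the sign depends on the scaling. IGLV2-23, a V gene of the same family, had 17 and 109 reads, or 12.5 CPM (7.28 to 20.01) and 72.1 CPM (59.2 to 87.0). It was low in replicate 1 and higher in replicate 2, with intervals that did not overlap.

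Of the lambda constant genes, which encode the part of the chain shared by all lambda antibodies of a subtype, IGLC2 had the most reads. It had 638 reads in replicate 1, or 469 CPM (433 to 507), and 2252 in replicate 2, or 1490.4 CPM (1429 to 1553). The intervals lay far apart, and the SD of 722 CPM was close to the mean of 980 CPM (979.7, n = 2). IGLC3 had 77 and 123 reads, or 56.6 CPM (44.7 to 70.7) and 81.4 CPM (67.7 to 97.1). These intervals overlapped. Among reads assigned to IGLC2 or IGLC3, IGLC2 held 89.2% (86.7 to 91.3%) and 94.8% (93.9 to 95.6%).

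IGLL5, which is related to the surrogate light chain of B cell precursors, had 2 reads and 1 read. Both counts are at or under the limit of 3 reads, which is worth 2.21 and 1.99 CPM. Its last exon begins at 22895375, as IGLC1 does, and shares 451 bases with it, so reads confined to that exon cannot be told apart between these genes. IGKC (ENSG00000211592.8, chromosome 2, 88857161 to 88857683, minus strand), the only constant gene of the kappa locus, had 106 and 131 reads. These were 77.9 CPM (63.8 to 94.2) and 86.7 CPM (72.5 to 102.9), with overlapping intervals and a mean of 82.3 CPM ± 6.21 (SD, n = 2). In order of mean level, IGLV2-14 lay above IGLC2, followed by IGKC, IGLC3 and IGLV2-23, with IGLL5 last. IGKC and IGLC3 had overlapping intervals in both libraries, so their order is not settled at this depth. IGLC3 and IGLV2-23 overlapped in replicate 2, while in replicate 1 IGLC3 was the higher.

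**Figure D1:**
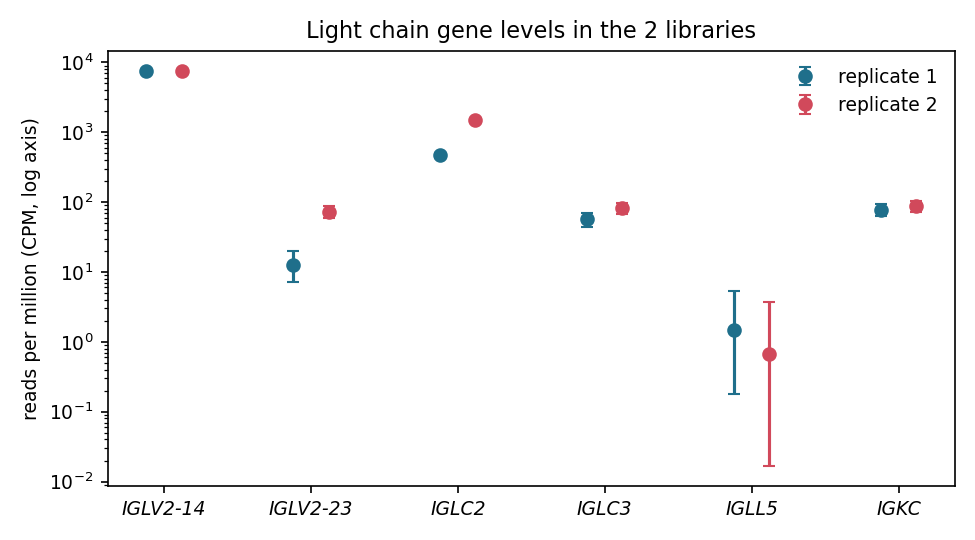
Points show the level of each of the 6 light chain genes with reads, in CPM on a log axis, for replicate 1 (left point) and replicate 2 (right point); bars are exact Poisson 95% intervals of the counts. IGLV2-14 stood at 7438 and 7507 CPM, while IGLC2 and IGLV2-23 were higher in replicate 2.

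Kappa transcripts made up a small part of the light chain reads. Of the reads assigned to constant genes, IGKC held 12.9% in replicate 1 (10.8 to 15.4%) and 5.23% in replicate 2 (4.42 to 6.17%), a mean of 9.07% ± 5.43 (SD, n = 2). This share counts only reads listed under a constant gene. Which constant segment the models listed under V genes hold cannot be read from the table. Over all V, J and C genes of both loci, a count chosen after seeing the data, the kappa share was 3.11% (2.81 to 3.45%) and 1.93% (1.72 to 2.17%). The lambda locus had 7982 and 9165 CPM from 12 genes, and the kappa locus 257 and 181 CPM from 7 genes. Lambda was above kappa in both libraries. Reads listed under IGLV2-14 alone made up 93.2% of the lambda reads in replicate 1 and 81.9% in replicate 2. Of the IGLV2-14 reads, 9.22% and 19.4% lay in models of 2 exons. Such models need not hold the V exon, and without coordinates this cannot be told. The IGLV2-14 values are therefore not a level of V sequence alone.

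The IGLV2-14 reads were spread over 877 transcript models, the largest number of any of the 16645 annotated genes. The 24 other genes with between 0.5 and 2 times as many reads had a median of 139 models and at most 339. None of the IGLV2-14 reads was listed under a known model, that is, under the annotated V transcript of 402 bases. The upper Wilson bounds of its share were 0.0379% and 0.0339% of the reads. That transcript has no J or C block, so an mRNA aligned as leader, V, J and C blocks could not be listed under it. Instead, models that join annotated splice sites in an unannotated combination (NIC) held 8177 reads, or 80.8% (80.03 to 81.6%), in replicate 1 and 7419 reads, or 65.4% (64.5 to 66.3%), in replicate 2. Over all genes NIC models took 4.12% and 2.89% of the reads. IGLV2-14 alone supplied 14.6% (14.3 to 14.9%) and 17.02% (16.7 to 17.4%) of all NIC reads in the libraries, and without this gene NIC models took 3.54% and 2.41% of the remaining reads. Models with an unannotated splice site (NNC) held 1.64% and 1.36% of the IGLV2-14 reads.

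Incomplete splice matches (ISM), which carry a run of the junctions of a listed transcript, made up the rest. They held 1776 reads, or 17.6% (16.8 to 18.3%), in replicate 1 and 3770 reads, or 33.2% (32.4 to 34.1%), in replicate 2. Of the ISM kinds, suffix models retain the 3′ end of the transcript. They held 98.03% and 99.05% of these ISM reads, against 68.3% and 67.95% over all genes. Those retaining the 5′ end (prefix) had 32 and 29 reads. Direct RNA strands are read from their 3′ end, so a strand that breaks or ends early keeps that end.

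Models with 4 exons, the number of blocks of a leader, V, J and C transcript, were the largest class. They held 5258 reads, or 51.96% (50.99 to 52.9%), in replicate 1 and 4674 reads, or 41.2% (40.3 to 42.1%), in replicate 2. Models with 3 exons held 37.2% and 38.1%, and those with 2 exons 9.22% and 19.4%. A single model had 1 exon, with 0 and 4 reads, and models with 5 exons held 1.64% and 1.28%. The plot of reads by exon number shows that NIC models dominate at 4 exons and ISM models at 2.

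**Figure D2:**
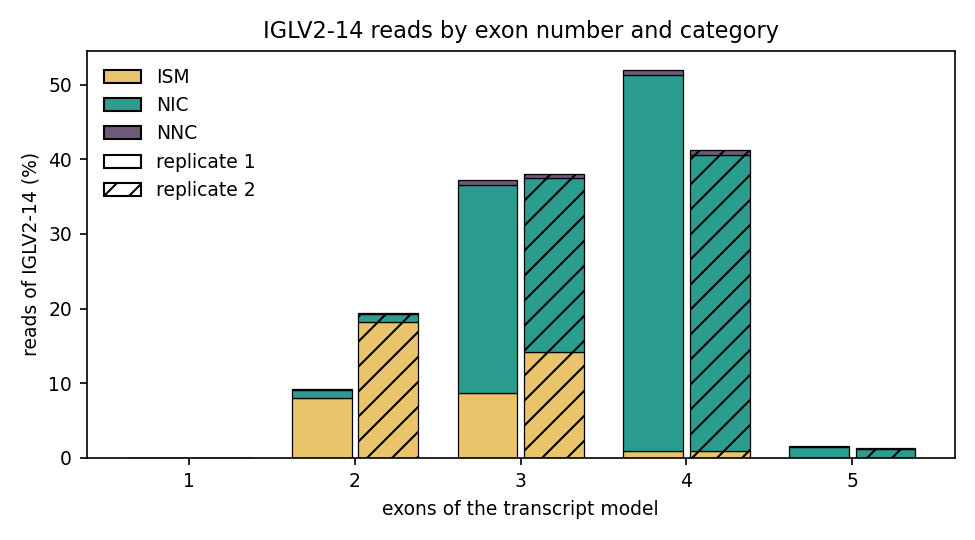
Bars give the percentage of IGLV2-14 reads in models with 1 to 5 exons, stacked by category (ISM, NIC, NNC), plain for replicate 1 and hatched for replicate 2. The 4-exon bars stand at 51.96% and 41.2% and the 2-exon bars at 9.22% and 19.4%.

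The 3 leading models all had 4 exons. The first, ENCODEHT000276769 of 1007 bases, had 1557 reads (15.4% of the gene) and 1476 reads (13.01%). The model ENCODEHT000282497 of 889 bases had 1627 reads (16.1%) and 1300 reads (11.5%). Model ENCODEHT000276767 of 1113 bases had 1134 reads (11.2%) and 1060 reads (9.34%). Together these 3 held 42.7% of the IGLV2-14 reads in replicate 1 and 33.8% in replicate 2, and 5 and 6 models were enough to cover 50% of the reads. The annotated V transcript and the IGLC2 exon sum to 864 bases, including the heptamer at the V end, where the V-J join is cut. The models of 889, 1007 and 1113 bases exceed this sum by 25, 143 and 249 bases. The table holds no coordinates, so the J and C segments in each model cannot be told from it.

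Among the shorter models, ENCODEHT000288502 was the most abundant with 2 exons. It had 501 bases, which is 39 more than the IGLC2 or IGLC3 exon, and the J segments printed above have 38 bases after the heptamer. Whether this model holds any V sequence cannot be told without coordinates. It had 204 reads, or 2.02% of the gene, in replicate 1 and 828 reads, or 7.30%, in replicate 2. The suffix model ENCODEHT000282542, with 3 exons and 1018 bases, had 381 reads and 769 reads. Both were higher in replicate 2.

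**Figure D3:**
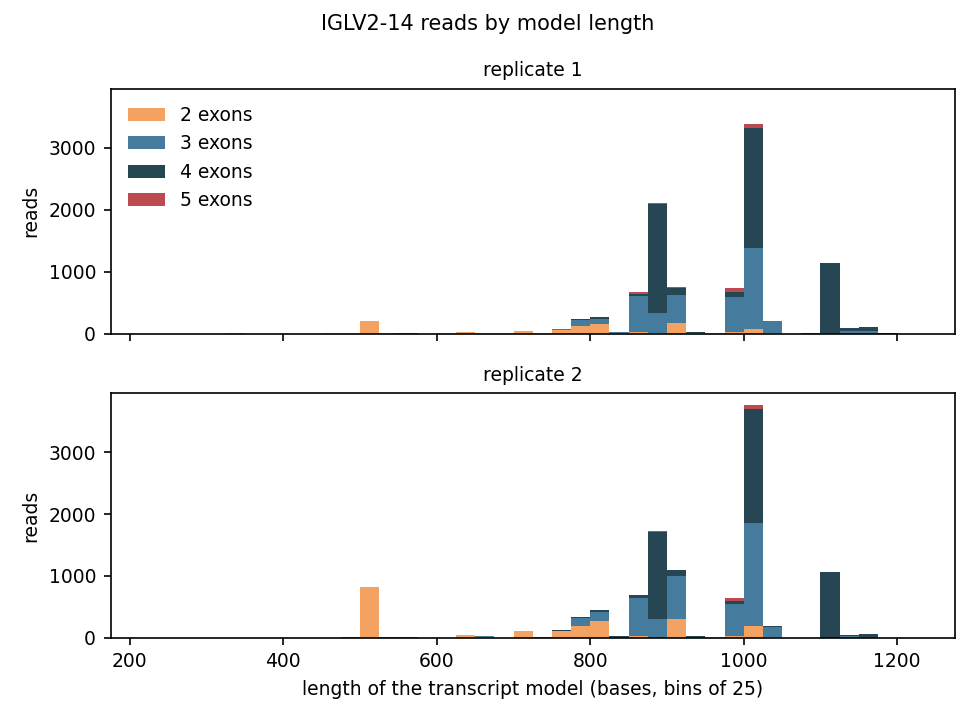
Stacked bars give the number of IGLV2-14 reads by length of their transcript model in bins of 25 bases, coloured by exon number, for replicate 1 (top) and replicate 2 (bottom). Longer models and those with 1 or 6 exons, with 11 and 10 reads in all, are not drawn. The peaks at the bins of 889, 1007 and 1113 bases are mostly reads of 3 and 4 exons, and the 2-exon peak at 501 bases is taller in replicate 2.

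Model lengths differed slightly between the libraries. The median was 991 bases in replicate 1 and 982 in replicate 2, and the 10th percentile was 861 and 771 bases. Reads in models of 850 to 1200 bases made up 91.1% and 82.3%. Models under 600 bases held 213 reads (2.10%) and 873 reads (7.70%).

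Most of the 877 models were rare. A single read supported 445 of them (50.7%), against 60.7% over all annotated genes. Both libraries had a read in 363 models (41.4%, against 29.9% over all annotated genes), and 131 models had at least 5 reads in each. Of the 29 models with at least 100 reads, the 10 ISM models were all higher in replicate 2, with log2 ratios from 0.35 to 1.87. Of the 19 NIC or NNC models, 17 were lower in replicate 2 and 2 were higher, with log2 ratios from -0.72 to 0.10. Some of these ratios had intervals that include 0, such as -0.09 (-0.41 to 0.23) for ENCODEHT000282531. Reads of these models come from the same RNA and are not independent replicates of each other. Over all reads, the ISM share also rose, from 23.8% to 31.9%. The NIC share fell from 4.12% to 2.89% and the NNC share from 4.39% to 3.13%. The same count over models of all genes was not made, so this split is not shown to be particular to IGLV2-14.

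**Figure D4:**
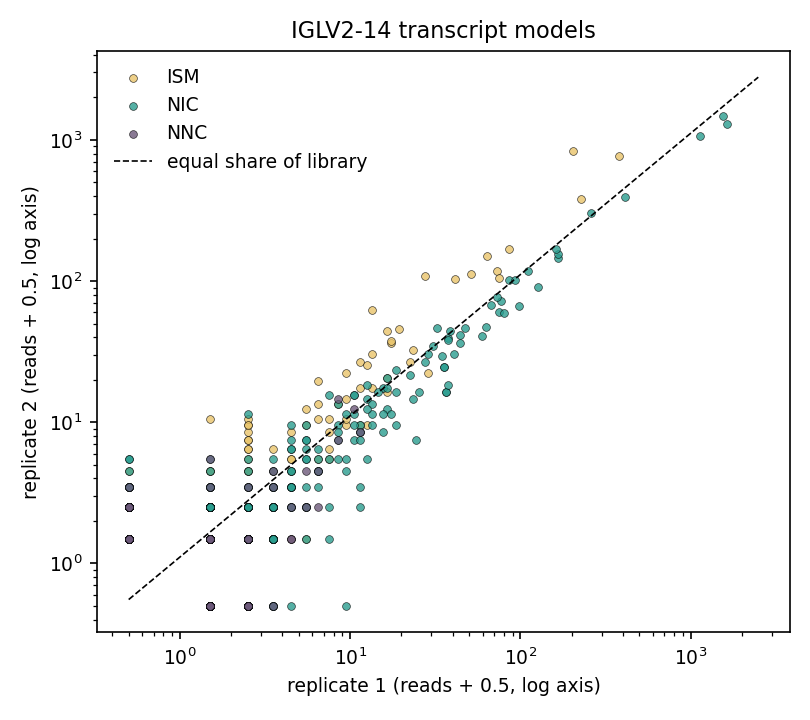
Each point is an IGLV2-14 transcript model, with its reads plus 0.5 in replicate 1 (x) and replicate 2 (y) on log axes, coloured by category; the dashed line marks an equal share of the library. The abundant ISM models lie above the line, and the 3 leading NIC models lie just below it.

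The constant and V genes other than IGLV2-14 had simpler tables. IGLC2 and IGKC reads were all in the known single-exon model, of 462 and 523 bases. All IGLV2-23 reads were in its known model, with 2 exons and 502 bases, so no IGLV2-23 read was listed in a model that reaches a J or C segment. IGLC3 had 18 models. Its known single-exon model held 48 reads, or 62.3% (51.2 to 72.3%), in replicate 1 and 113 reads, or 91.9% (85.7 to 95.5%), in replicate 2.

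The other 17 IGLC3 models had 2 to 5 exons and lengths of 397 to 912 bases. They held 29 reads in replicate 1 and 10 in replicate 2, and 13 of them rested on a single read. The most abundant, ENCODEHT000276587, was an NNC model of 4 exons and 907 bases with 12 and 2 reads. Models of at least 4 exons held 32.5% of IGLC3 reads (23.1 to 43.5%) in replicate 1 and 5.69% (2.78 to 11.3%) in replicate 2. IGLL5 reads were in a known model of 2 exons and 882 bases.

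Between the libraries, IGLC2 and IGLV2-23 were the members with log2 ratios past 1 over all models. With known models only, scaled by the reads in known models, IGLC3 passed it too, at 1.36. Scaled by library totals, the known IGLC3 model stood at 1.08 (0.58 to 1.60). Of the 10634 annotated genes with at least 10 reads, 602 (5.66%) had a log2 ratio of replicate 2 to replicate 1 above 1 and 305 (2.87%) below -1, that is 8.53% in either direction. Of the 5 light chain genes with that depth, 2 were above 1 and 0 below -1, and their median log2 ratio was 0.52 beside 0.01 for all genes. This count is a description, since the genes were grouped with these ratios known. IGLV2-23 stood at 2.49 (95% interval 1.78 to 3.36), a ratio of 5.77. IGLC2 stood at 1.67 (1.54 to 1.80), a ratio of 3.18. Among the 356 genes with at least 1000 reads, a limit chosen after seeing the data, IGLC2 was the only one above 1 with library totals, and 9 were below -1. IGLC3 had 0.52 (0.10 to 0.95) and IGKC had 0.15 (-0.23 to 0.54), whose interval includes 0. These intervals cover counting error only, and with 1 library on each side the ratios have no replicate check.

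**Figure D5:**
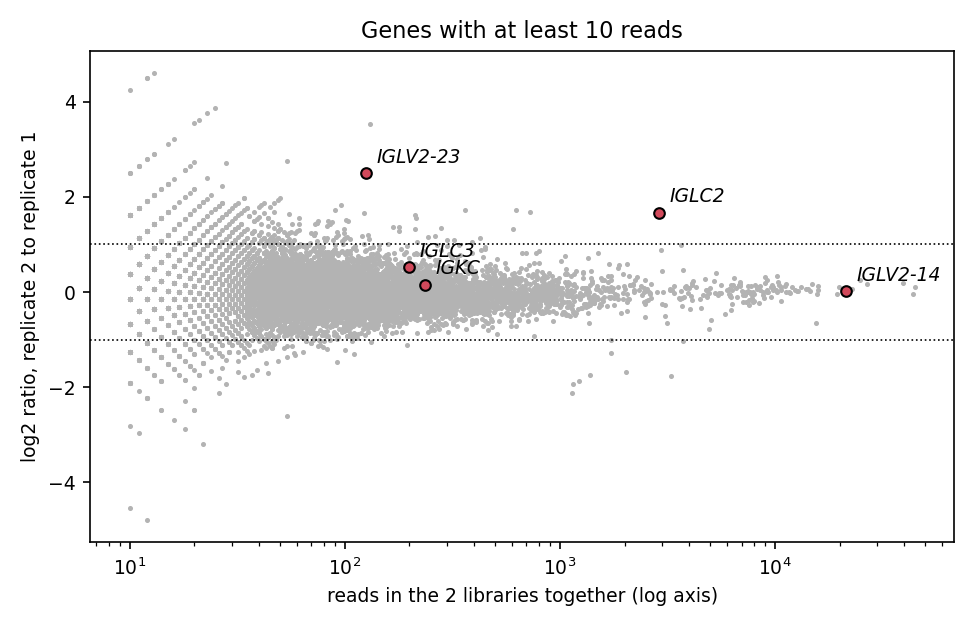
Grey points are the 10634 annotated genes with at least 10 reads, plotted by reads in both libraries (log axis) and log2 ratio of replicate 2 to replicate 1; red points are light chain genes and dotted lines mark ratios of 1 and -1 on the log2 scale. IGLC2 and IGLV2-23 lie above the upper line, and IGLV2-14 lies near 0.

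In IGLV2-14, the ratio between libraries went with the number of exons in the model. Models of 4 exons had 3865 and 3093 CPM, a log2 ratio of -0.32 (-0.38 to -0.26). Models of 3 exons had 2765 and 2860 CPM, a log2 ratio of 0.05 (-0.02 to 0.11). Those of 2 exons had 686 and 1455 CPM, a log2 ratio of 1.08 (0.97 to 1.20).

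Annotated genes outside the light chain set had log2 ratios of 0.36 for 1 exon, 0.53 for 2, 0.24 for 3 and 0.01 for 4. The IGLV2-14 ratio was above theirs for 2 exons and below it for 3 and 4. Lambda reads in models of 1 exon had a log2 ratio of 1.63. IGKC, with all reads in a single-exon model, had 0.15 (-0.23 to 0.54), an interval that includes the 0.36 of the other genes. Lambda reads in models of at least 3 exons made up 84.9% (84.2 to 85.5%) in replicate 1 and 66.1% (65.3 to 66.9%) in replicate 2. Most lambda reads in models of at least 3 exons were those of IGLV2-14, and IGLC2 gave 638 of the 689 and 2252 of the 2377 lambda reads in single-exon models. Single-exon models held 6.34% and 17.2% of the lambda reads, 30.9% and 48.4% of the kappa reads, and 22.2% and 28.5% of all reads in annotated genes. Across all reads, the ISM share was 23.8% and 31.9% and the share in known models 55.9% and 45.9%. The part of this library-wide shift in the IGLC2 and IGLV2-23 differences was not tested. Lambda reads of all exon classes together had a log2 ratio of 0.20 (0.16 to 0.24). Kappa reads had the opposite direction, at -0.51 (-0.74 to -0.27).

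Of the other light chain genes, 17 had a read and 5 had at least 10. IGKV1-16 (chromosome 2, 89099859 to 89100361), a kappa V gene, had 122 and 91 reads over 37 models. IGKV2-18 (89128724 to 89129483), annotated as a kappa V pseudogene, had 69 and 39 reads over 27 models. IGKJ1 (88861886 to 88861923), a kappa J segment, had 46 and 8 reads, a log2 ratio of -2.60 (-3.97 to -1.58). These 3 genes had 97.8% or more of their reads in models of at least 2 exons in either library. The leading models of IGKV1-16 and IGKV2-18 were suffix models of 2 exons with 560 and 561 bases, and IGKJ1 and IGKC sum to 561 bases. Kappa reads in models of at least 3 exons made up 40.97% (35.9 to 46.2%) and 21.98% (17.5 to 27.3%). As in the lambda locus, this share was lower in replicate 2.

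VPREB3 (chromosome 22, 23752743 to 23754468), related to the VpreB part of the surrogate light chain, had 35 and 69 reads, or 25.7 and 45.7 CPM. Its intervals overlapped only between 35.5 and 35.8 CPM, and its log2 ratio was 0.82 (0.22 to 1.46). The lambda V gene IGLV4-69 had 1 and 10 reads, and IGKV1OR-2, annotated as a V pseudogene on chromosome 9, had 7 and 2. The remaining 11 genes had between 1 and 8 reads each, 15 and 21 in all.

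A list of 12 genes that assemble, control or accompany light chains was read beside them. Of these, 7 had at least 10 reads, 0 had an absolute log2 ratio above 1, and their median was -0.02. With 8.53% of all genes past that limit, a count of 0 in 7 says nothing particular about the list. RAG1, which cuts at the recombination signals, had 0 and 1 read. RAG2, DNTT, VPREB1 and IGLL1 were not analysed here. CD79A, which signals for the B cell receptor, had 688 and 679 CPM, a log2 ratio of -0.02 (-0.15 to 0.11). Its partner CD79B had 83.1 and 82.7 CPM, a log2 ratio of -0.01 (-0.38 to 0.37). IGHM, the mu heavy chain, had 264 and 351 CPM, a log2 ratio of 0.41 (0.21 to 0.61). JCHAIN, which links secreted IgM or IgA, had 199.9 and 127.1 CPM, a log2 ratio of -0.65 (-0.93 to -0.38). POU2AF1, a coactivator at immunoglobulin promoters, had 242 and 182 CPM, a log2 ratio of -0.41 (-0.65 to -0.17). IRF4, a transcription factor of the B lineage, had 337 and 267 CPM, a log2 ratio of -0.34 (-0.54 to -0.14).

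The cell line was checked against marker genes. All 7 B cell markers had at least 10 reads, with 9089 and 9443 CPM in sum, most of it from CD74 with 10565 and 12221 reads. Of 4 plasma cell markers 3 did, with 388 and 314 CPM in sum, and PRDM1 had 4 and 3 reads. Of 4 T cell markers, TRAC had 210 and 222 reads and CD3E 5 and 16, a summed level of 158 CPM in each library, and CD3D and CD3G were not analysed here. Their part in the light chain values was not tested. In the myeloid list and the list of other lineages, the genes with a read had at most 4 and 5 reads over both libraries.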

How the data were processed

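The authors deposited a single table of raw read counts, with 1 row per transcript model and 1 count column per replicate; both columns matched a sample by title. The deposited rows also give 2 other values, the exon number and the length of each model in bases. The table's name shows the program TALON; minimap2 and hg38 are named in the submitters' processing notes, and versions and filters are not given in the sources used here. Per the labels' protocols, depleted RNA entered the direct RNA kit after reverse transcription.

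All 23533 known models and all 16645 gene identifiers matched GENCODE 29 (GRCh38), which supplied positions and sequences. Gene counts are sums over models, scaled to CPM by all reads listed. Log2 ratios used 0.5 added reads. Intervals are 95% Poisson, Wilson or Clopper-Pearson, from scipy 1.17.1, and they and the limit of 3 reads cover counting error only. The calculation was tested on simulated data. Alternatives included TMM (edgeR 4.0.16) and DESeq2 1.42.0 scaling. Named genes were the 8 members, the 3 leading models of each, the 6 other light chain genes with most reads, and the pathway and marker lists. Further models and model groups were singled out after their values were seen. Members and lists were chosen with earlier results of these data known.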

Additional observations from a re-analysis of the deposited data

How the results depend on the processing

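No paired analysis was possible because the libraries form a single group. Leaving out either replicate leaves the other's value, given above, and says nothing about stability. Of the 97 values under other alternatives, 72 stayed within the limit set for them and 25 moved. This limit was the replicate SD or the counting interval. For the number of genes past an absolute log2 ratio of 1, it was a fixed fold change of that number. No ratio past a log2 of 1 changed sign. This could hardly have come out otherwise, because the alternatives for the IGLC2 and IGLV2-23 ratios removed none of their reads.

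With known models only, mean levels were 0 CPM for IGLV2-14, 89.8 for IGLV2-23, 2044 for IGLC2, 113 for IGLC3, 2.04 for IGLL5 and 164 for IGKC, log2 ratios were 1.95 for IGLC2 and 1.36 for IGLC3, which puts IGLC3 past the limit of 1, and the genes' share of reads was 0.241%. IGLV2-14 then had no ratio. Without genomic models IGLV2-14 had 8612 CPM and a log2 ratio of 0.0846, IGKC 94.97 CPM, and the share was 0.998%. Known models held all reads of IGLV2-23, IGLC2, IGLL5 and IGKC, so with known models only their values moved through the smaller totals alone. The IGLC3 ratio of 1.36 also used these totals, and its known model had 1.08 with library totals. Genomic models held no IGLV2-14 or IGKC read, so without them these levels rose through the smaller totals alone. With models of at least 2 reads IGLV2-14 had 7708 CPM and an NNC share of 0.987%; with models read in both libraries it had 7810 CPM and IGKC 88.6 CPM. With models of at least 2 exons, the IGKC share of constant gene reads was 0%, and IGLC3 had 0% of reads in known and 83.1% in NNC models, since single-exon models are removed. Over all V, J and C genes the kappa share was 2.52%. Genes past an absolute log2 ratio of 1 numbered 907, and 4843 with no minimum, 475 at 20 reads, 45 at 100 and 10 at 1000. Depth limits IGLL5, IGLC3, IGLV2-23 and IGKC most.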
